A study of Rattus norvegicus with 40 samples.

Results

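The early hepatic response of Han/Wistar (H/W) rats to TCDD, a chlorinated dioxin, was examined in 8 of the 40 arrays of the study: 4 livers of H/W rats taken 3 h after TCDD, against the 4 livers of H/W rats that had received corn oil. TCDD was given once by gavage, at 100 µg/kg in corn oil, and the corn oil rats received the vehicle alone and were taken at 19 h. All rats were males of 10 to 12 weeks from the same breeding colonies. H/W rats carry an aryl hydrocarbon receptor (AHR) from whose transactivation domain a stretch is deleted, in the TCDD rats and in the corn oil rats alike, and are resistant to the lethal effects of TCDD. Long-Evans (L-E) rats, with wildtype AHR, were the other strain examined at 3 h (4 TCDD rats, set against 4 corn oil rats at 19 h). L-E rats and the lines LnA (deleted AHR) and LnC (wildtype AHR), each with 4 TCDD and 4 corn oil rats at 19 h, are used below for comparison. Each array measured the mRNA of 1 whole liver sample, in which fewer cells of a type and less RNA per cell cannot be told apart.

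The AHR is a ligand-activated transcription factor. On binding TCDD it moves into the nucleus, pairs with ARNT and binds DNA at short elements with the core GCGTG, from which it raises the transcription of a well-known battery of genes for drug and aldehyde metabolism. The battery includes the cytochromes P450 of family CYP1, and it also includes Tiparp, an ADP-ribosyltransferase that restrains the AHR. Liver mRNA also follows feeding and the time of day: fasting raises genes of amino acid breakdown and fat oxidation, feeding raises genes of lipid synthesis, and the circadian clock drives genes such as Per2 and Cyp7a1.

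The design sets limits on every value below. No H/W corn oil rat was taken at 3 h. The labels give 1 harvest window for all groups, whereas the study's methods give it for the rats of 19 h, so the groups differed in the time since gavage and in its hour, in the time of day of harvest or in both, as well as in TCDD. The 4 TCDD arrays were scanned on 1 day, which they shared with the L-E arrays of 3 h, and the corn oil arrays were scanned on 3 other days. By the study's methods each treatment group of 4 rats was kept together in 1 cage, so cage goes with group in every comparison below. TCDD, cage, time of day, time since gavage and scan day therefore cannot be told apart within H/W rats. Fits with scan day as a random block, given below, allow for a likeness of arrays of the same day. They cannot remove or test a difference between days that goes with the groups. Nothing in the labels says more of the replicates than that they are separate samples, so p-values measure the spread between these samples.

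The arrays were alike in median signal. Their median log2 signals lay between 3.52 and 3.72, and each TCDD array correlated with the other arrays of its group at a mean r of 0.9955 to 0.9958, against 0.9919 to 0.9936 for the corn oil arrays. Across the groups the mean r was 0.9856 to 0.9888. Differences in 18 spike-in control probe sets between the groups ran from -0.457 to 0.0961 on the log2 scale. All but CreX-3, CreX-5 and r2-Ec-bioD-3 were lower in the TCDD arrays. The groups did not overlap for BioDn-3 (-0.457), r2-Ec-bioB-3 (-0.364), r2-Ec-bioC-5 (-0.300) and r2-Ec-bioD-5 (-0.281). Spike-ins are added to the sample, so these differences are technical, and their part in the results was not tested. The 3′ minus 5′ difference of GAPDH, a measure of RNA integrity, was 0.138 to 0.200 in TCDD rats and 0.131 to 0.638 in corn oil rats, and that of beta-actin was 1.95 to 2.12 in TCDD rats and 1.99 to 2.37 in corn oil rats. The array's 3 control probe sets for beta-actin were lower in TCDD rats, with log2 differences of -0.68 to -0.49, with groups that did not overlap.

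One corn oil liver, replicate 3, stood apart in AHR genes. Its Cyp1a1 signal was 8.60, against 2.38 to 2.89 in the other 3 H/W corn oil livers. It also held the highest H/W corn oil signal for 6 of the 9 AHR battery genes measured. In the 12 corn oil livers of L-E, LnA and LnC rats Cyp1a1 ranged between 2.13 and 7.81, and 9 of the 12 exceeded 2.89. The main values that rest on replicate 3 are given with and without it.

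Of 10411 genes measured, 117 (1.12%) differed between the H/W TCDD rats at 3 h and the corn oil rats at an adjusted p under 0.01. More were higher than lower in TCDD rats: 81 (0.778%) against 36 (0.346%). All 117 had groups that did not overlap, as did 1258 genes (12.1%) of the whole array. For 97 of the 117, all 4 TCDD livers also lay outside the range of all 16 corn oil livers of the 4 strains/lines, which held for 386 genes (3.71%) of the array. The excess of higher genes depended on the fit: the split was 55 higher and 38 lower with quantile normalization, 87 higher and 88 lower without corn oil replicate 4, 270 higher and 323 lower in a fit of all 10 groups, and 255 higher and 240 lower at an adjusted p under 0.05. Differences are given as log2 fold changes, TCDD minus corn oil, with the standard error (SE) and the p-value of limma, a linear model fitted across genes, adjusted over all genes by the Benjamini-Hochberg method. At an unadjusted p under 0.05 there were 1795 genes (17.2%). The median log2 fold change of all genes was -0.0158, with 7086 genes below 0 and 3325 above.

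**Figure D1:**
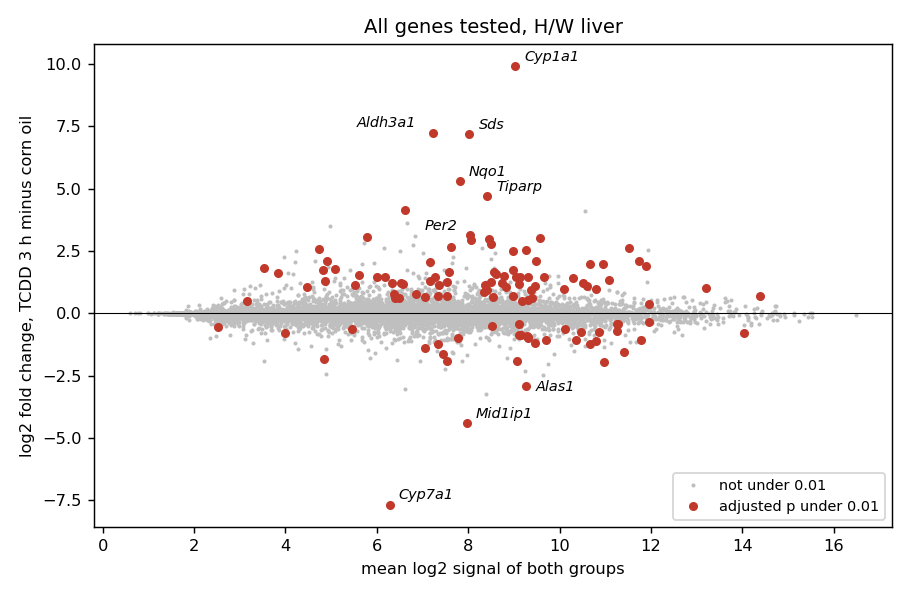
Log2 fold change of each of the 10411 genes, TCDD 3 h minus corn oil in H/W rats (vertical axis), against the mean log2 signal of both groups (horizontal axis), 1 point per gene, with the 117 genes past an adjusted p of 0.01 in red and the others in grey. The extremes were Cyp1a1 at 9.93 and Cyp7a1 at -7.69.

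Cyp1a1, the classical AHR target and an enzyme that oxidises polycyclic aromatic compounds, was the gene raised most. Its log2 signals were 13.91, 13.95, 14.01 and 14.11 in the TCDD livers, against 2.38, 2.39, 8.60 and 2.89 in the corn oil livers. The TCDD livers were nearly alike, and the corn oil livers were far below them but spread widely through replicate 3. The log2 fold change was 9.93 (SE 1.35, adjusted p = 0.0093). Without corn oil replicate 3 it was 11.44 and remained significant, and without any 1 of the other 7 livers the adjusted p exceeded 0.01. Its paralog Cyp1a2, which hepatocytes express at high levels without any inducer, had signals of 14.74, 14.67, 14.75 and 14.83 in TCDD livers, against 13.94, 13.96, 14.29 and 13.96 in corn oil livers. The change of Cyp1a2 was 1.64-fold (log2 fold change 0.71, SE 0.08, adjusted p = 0.0056), near the top of the array's scale. It too was lost without any 1 of the livers other than corn oil replicate 3, without which the log2 fold change was 0.79.

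Cyp1b1, the third CYP1 enzyme, had little signal at 3 h. The TCDD livers were at 3.73, 4.67, 4.55 and 4.28, against 3.54, 3.84, 4.15 and 3.82 in corn oil livers, and the groups overlapped. The log2 fold change of Cyp1b1 at 3 h was 0.47 (SE 0.22, adjusted p = 0.34). Against the same 4 corn oil livers, H/W rats at 19 h after TCDD had a Cyp1b1 log2 fold change of 7.87.

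Aldh3a1, an aldehyde dehydrogenase, rose by 7.25 on the log2 scale (SE 0.39, adjusted p = 0.00028). Its signals were 11.43, 10.61, 10.06 and 11.31 in TCDD livers, against 3.42, 3.20, 4.47 and 3.29 in corn oil livers. Corn oil signals this low lie about at the array median, so that the size of such a difference depends on the low end of the scale. Nqo1, a quinone reductase controlled by both AHR and NRF2, had signals of 10.21, 10.34, 10.34 and 10.98 in TCDD livers and 3.66, 6.83, 5.32 and 4.84 in corn oil livers (log2 fold change 5.30, SE 0.60, adjusted p = 0.0046). Its significance was lost on leaving out any of the 4 TCDD livers, or corn oil replicate 3.

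Tiparp was at 11.06, 10.48, 11.26 and 10.25 in TCDD livers, against 5.97, 5.68, 6.85 and 5.76 in corn oil livers. Every TCDD liver exceeded every corn oil liver by more than the range of either group, and the log2 fold change was 4.69 (SE 0.32, adjusted p = 0.00057). Nfe2l2 encodes NRF2, the transcription factor of the antioxidant response. It was at 12.18, 11.94, 11.88 and 11.74 in TCDD livers and at 9.79, 9.98, 9.88 and 10.25 in corn oil livers, a 3.90-fold increase (log2 fold change 1.96, SE 0.12, adjusted p = 0.00042). Aldh3a1, Tiparp and Nfe2l2 remained significant without any 1 of the 8 livers. Without corn oil replicate 3 their log2 fold changes were 7.54 for Aldh3a1, 4.95 for Tiparp and 1.93 for Nfe2l2, and that of Nqo1 was 5.36 (adjusted p = 0.019).

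Thus 6 of the 9 measured members of the AHR battery rose and none fell, where 0.778% of all genes rose. The median log2 fold change of the 9 was 1.96. Xdh, xanthine dehydrogenase, had a log2 fold change of 0.45 (SE 0.11, adjusted p = 0.060) with groups that did not overlap, and Cyp2s1 stayed near the low end of the scale with a log2 fold change of 0.03 (adjusted p = 0.99). Leaving out 1 liver reduced the battery's count to 3 (without TCDD replicate 1, 2, 3 or 4), to 4 (without corn oil replicate 1, 2 or 4) or to 5 (without corn oil replicate 3). With scan day as a random block, or after median centring, 3 passed.

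**Figure D2:**
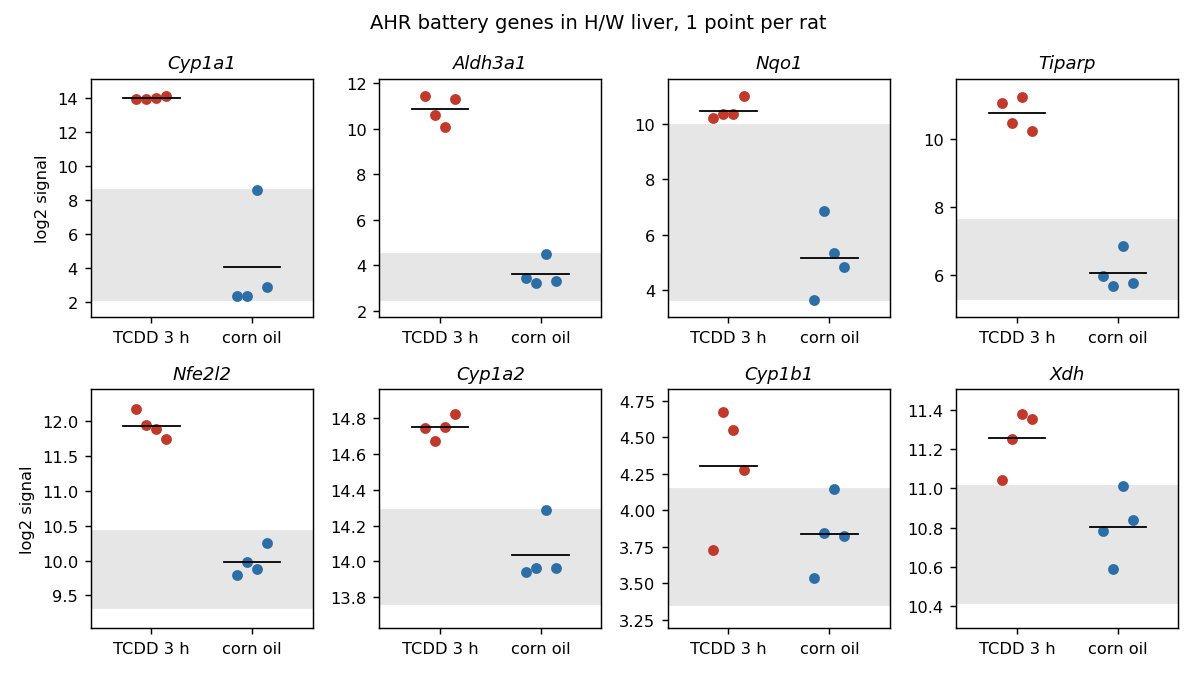
Log2 signal (vertical axis) of genes of the AHR battery in each H/W liver, TCDD 3 h left and corn oil right in each panel, with the group mean as a black line and the range of all 16 corn oil livers of the study as a grey band. Cyp1a1 shows the single corn oil liver at 8.60 among others at 2.38 to 2.89.

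Of 13 measured genes of the AHR complex and its coregulators, none passed the threshold, which 1.12% of all genes passed. The median log2 fold change of the 13 was -0.003. Ahr itself had a log2 fold change of 0.01 (adjusted p = 0.99) and Arnt 0.18 (adjusted p = 0.92). Hsp90ab1, a chaperone that holds the unliganded receptor, had the lowest value (-0.64, adjusted p = 0.017). Of 19 NRF2 target genes measured, Nqo1 alone passed the threshold. Srxn1, sulfiredoxin, had a log2 fold change of 2.52 (adjusted p = 0.041), and Gclc, of glutathione synthesis, had -1.03 (adjusted p = 0.049).

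Outside the battery, the genes raised most included several not classed with drug metabolism. Pla2g12a, a secreted phospholipase A2, was at 9.10, 8.49, 8.69 and 8.47 in TCDD livers, against 4.17, 5.81, 3.83 and 4.32 in corn oil livers (log2 fold change 4.16, adjusted p = 0.0026); the call was lost on leaving out TCDD replicate 1, 3 or 4, or corn oil replicate 1. Eml4, a microtubule-binding protein, was at 9.50, 9.63, 9.33 and 9.97 in TCDD livers and 6.49, 6.41, 6.80 and 6.12 in corn oil livers (log2 fold change 3.15, adjusted p = 0.00028). Tada1, a subunit of the SAGA coactivator complex, was at 7.15, 7.35, 7.81 and 6.97 in TCDD livers and 4.34, 4.48, 3.67 and 4.50 in corn oil livers (log2 fold change 3.07, adjusted p = 0.00084). Fbxo31, the substrate receptor of a ubiquitin ligase, was at 10.91, 11.02, 11.31 and 11.10 in TCDD livers and 8.14, 7.75, 8.44 and 7.92 in corn oil livers (log2 fold change 3.02, adjusted p = 0.00028). Groups that do not overlap were a condition for naming these 4 genes. In each of them all TCDD livers also exceeded all 16 corn oil livers of the study. Eml4, Tada1 and Fbxo31 remained significant without any 1 liver.

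Promoters of the 5 of these most raised genes that hold the AHR core are shown, since they let the elements be read beside the values above. The sequences are from RefSeq (build GRCr8), 250 bases before to 50 after the annotated start of the gene, and capitals mark each GCGTG core or, where it lies on the other strand, its complement CACGC. The positions are chr19:52220218-52220517 (minus strand) for Nqo1, chr2:152063519-152063818 (plus strand) for Tiparp, chr2:221110472-221110771 (plus strand) for Pla2g12a, chr13:81165621-81165920 (plus strand) for Tada1 and chr19:66564625-66564924 (minus strand) for Fbxo31.
Nqo1: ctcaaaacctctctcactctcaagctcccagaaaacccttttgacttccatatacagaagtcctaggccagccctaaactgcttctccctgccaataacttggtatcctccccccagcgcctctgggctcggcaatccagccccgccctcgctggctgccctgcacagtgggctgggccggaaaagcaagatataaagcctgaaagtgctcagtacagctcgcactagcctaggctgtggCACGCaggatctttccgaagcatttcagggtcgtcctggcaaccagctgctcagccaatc
Tiparp: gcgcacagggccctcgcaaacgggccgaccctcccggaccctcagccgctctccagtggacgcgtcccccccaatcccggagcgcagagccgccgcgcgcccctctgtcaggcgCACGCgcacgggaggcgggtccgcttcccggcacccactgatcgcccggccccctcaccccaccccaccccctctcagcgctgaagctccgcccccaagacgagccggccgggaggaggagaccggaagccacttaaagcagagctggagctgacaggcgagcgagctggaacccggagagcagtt
Pla2g12a: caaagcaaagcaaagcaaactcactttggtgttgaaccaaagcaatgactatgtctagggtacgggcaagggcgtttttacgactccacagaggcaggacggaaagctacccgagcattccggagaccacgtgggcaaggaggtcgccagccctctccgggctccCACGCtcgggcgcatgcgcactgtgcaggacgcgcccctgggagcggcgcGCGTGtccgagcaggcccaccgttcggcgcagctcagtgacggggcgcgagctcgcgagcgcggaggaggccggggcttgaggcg
Tada1: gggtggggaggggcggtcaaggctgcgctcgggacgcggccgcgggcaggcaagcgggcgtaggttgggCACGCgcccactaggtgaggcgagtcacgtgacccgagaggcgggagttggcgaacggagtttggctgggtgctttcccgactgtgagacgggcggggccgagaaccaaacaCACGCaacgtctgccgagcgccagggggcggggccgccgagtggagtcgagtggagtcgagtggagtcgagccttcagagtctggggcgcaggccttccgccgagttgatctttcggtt
Fbxo31: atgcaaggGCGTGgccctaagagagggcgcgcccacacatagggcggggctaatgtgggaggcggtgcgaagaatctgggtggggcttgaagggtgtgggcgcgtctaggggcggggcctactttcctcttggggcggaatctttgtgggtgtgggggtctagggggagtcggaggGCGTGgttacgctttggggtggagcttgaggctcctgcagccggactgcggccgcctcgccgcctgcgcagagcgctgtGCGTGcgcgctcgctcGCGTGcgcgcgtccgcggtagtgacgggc
Nqo1 holds 1 core, 10 bases before the start, and Tiparp holds 1, 136 bases before it. Pla2g12a and Tada1 hold 2 each, and Fbxo31 holds 4, of which 2 lie after the start.

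Of the 10 genes raised most, 7 had an entry in the promoter table and 5 of these held the core; Eml4 and Lpin1 did not, and Cyp1a1, Aldh3a1 and Sds had no entry. The core is a short motif and is common. It was in 31.1% of all 27457 promoters of the table and in 46.9% of the 8610 promoters of genes tested. Among genes called higher at 3 h, 42 of 72 promoters (58.3%) held it, and among genes called lower, 11 of 29 (37.9%). The share among the higher genes was 9 of 22 (40.9%) for those also called higher at 19 h in L-E, LnA or LnC rats and 33 of 50 (66.0%) for those that were not. In the AHR battery it was in 3 of 7, and in the list of cholesterol synthesis, where no gene rose, in 9 of 13. A match is a description of these letters and no evidence that the receptor was bound there.

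None of the 16 measured genes of the circadian clock list passed the threshold of 0.01, or that of 0.05. Of all genes, 1.12% passed 0.01 and 4.75% passed 0.05. At those shares a list this short can hold no called gene, so the clock genes are not shown to be unchanged. Their log2 fold changes ran from -1.32 to 3.12 with a median of 0.001, and 5 of the 16 had signals under the array median in both groups. Per2, a repressor of the clock, gave the largest difference. Its signals were 8.93, 8.29, 7.94 and 8.44 in TCDD livers, against 5.38, 2.95, 7.71 and 5.08 in corn oil livers, where replicate 3 was again the highest (log2 fold change 3.12, SE 0.88, adjusted p = 0.10). The groups did not overlap for Per2. The paper, with corn oil rats of the same time, reports Per2 as induced by TCDD in sensitive and in resistant rats. It describes this induction as low on arrays and as slightly higher by RT-PCR, another measure of mRNA. Whether TCDD or the time of day raised Per2 at 3 h was not tested. Without corn oil replicate 3 the log2 fold change of Per2 at 3 h was 3.93 (adjusted p = 0.030), and in a fit of all 10 groups its adjusted p was 0.0021. Bmal1, an activator of the clock, was at 5.97, 5.26, 5.87 and 5.38 in TCDD livers and 6.01, 6.32, 6.40 and 5.97 in corn oil livers (log2 fold change -0.56, adjusted p = 0.16). Nr1d1 was at 0.01, Dbp at -0.01, Nr1d2 at 1.05 and Bhlhe40 at -1.32, all with adjusted p over 0.2.

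Of 16 measured genes of liver known to follow the clock without being part of it, 1 was higher and 3 were lower. Of all genes 0.778% were higher and 0.346% lower. The median log2 fold change of the 16 was -0.02. With scan day as a random block none of the 16 was higher and 2 were lower. Cyp7a1, the rate-limiting enzyme of bile acid synthesis from cholesterol, had the largest decrease of the called genes, with signals of 2.42, 2.45, 2.43 and 2.46 in TCDD livers, against 10.37, 10.44, 10.21 and 9.49 in corn oil livers. All 4 TCDD livers lay below the array median, and below the 7.09 of the lowest of all 16 corn oil livers. The log2 fold change was -7.69 (SE 0.20, adjusted p = 4.8e-06), and Cyp7a1 passed the threshold without any 1 liver and with scan day as a random block.

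Alas1, which makes the first intermediate of heme, was at 8.30, 7.56, 7.48 and 7.92 in TCDD livers, against 10.45, 10.62, 11.03 and 10.84 in corn oil livers (log2 fold change -2.92, SE 0.20, adjusted p = 0.00062). Lpin1, a phosphatidate phosphatase and coactivator of fat oxidation, was raised, at 9.67, 9.41, 10.71 and 9.98 in TCDD livers and 6.59, 7.09, 7.08 and 7.07 in corn oil livers (log2 fold change 2.99, SE 0.27, adjusted p = 0.0018). Tspan4, a membrane tetraspanin, was lower by less (log2 fold change -0.87, adjusted p = 0.0091), and was lost without any 1 liver other than corn oil replicate 2. Nampt, which makes a precursor of NAD, had a log2 fold change of 1.81 (adjusted p = 0.037). Alas1 and Lpin1 remained significant without any 1 liver. With scan day as a random block Alas1 kept its call (adjusted p = 0.0058), but Lpin1 did not (adjusted p = 0.018).

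Of 22 genes known to be raised by fasting, 3 rose and none fell, where 0.778% of all genes rose, with a median log2 fold change of 0.18. With scan day as a random block Sds alone passed, and the adjusted p was 0.019 for both Got1 and Pdk4. Sds, serine dehydratase, which releases pyruvate from serine for gluconeogenesis, was at 11.71, 11.56, 12.36 and 10.88 in TCDD livers, against 3.31, 4.40, 4.48 and 5.52 in corn oil livers (log2 fold change 7.20, SE 0.48, adjusted p = 0.00057). Got1, the cytosolic aspartate aminotransferase, was at 12.90, 12.26, 13.47 and 12.71 in TCDD livers and 9.92, 10.14, 10.40 and 10.37 in corn oil livers, a 6.17-fold increase (adjusted p = 0.0019); it was lost without corn oil replicate 1. Pdk4, the kinase that shuts off pyruvate dehydrogenase, was at 9.86, 9.54, 10.54 and 9.70 in TCDD livers and 7.47, 7.30, 6.58 and 7.09 in corn oil livers, a 6.95-fold increase (adjusted p = 0.0019). In all 3 genes TCDD replicate 3 was the highest liver, and the groups did not overlap.

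The list was divided, however. Pck1, the rate-limiting enzyme of gluconeogenesis and a classical fasting gene, had a log2 fold change of -0.08 (SE 0.17, adjusted p = 0.99) with mean signals of 12.77 in TCDD livers and 12.85 in corn oil livers. Igfbp1, a binding protein of insulin-like growth factors, had 3.50 (SE 0.84, adjusted p = 0.063), Angptl4 had 1.49 (adjusted p = 0.029) and Cpt1a, the entry step of mitochondrial fat oxidation, had 1.21 (adjusted p = 0.046). Ehhadh, a peroxisomal enzyme of fat oxidation, went the other way at -1.16 (adjusted p = 0.019).

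**Figure D3:**
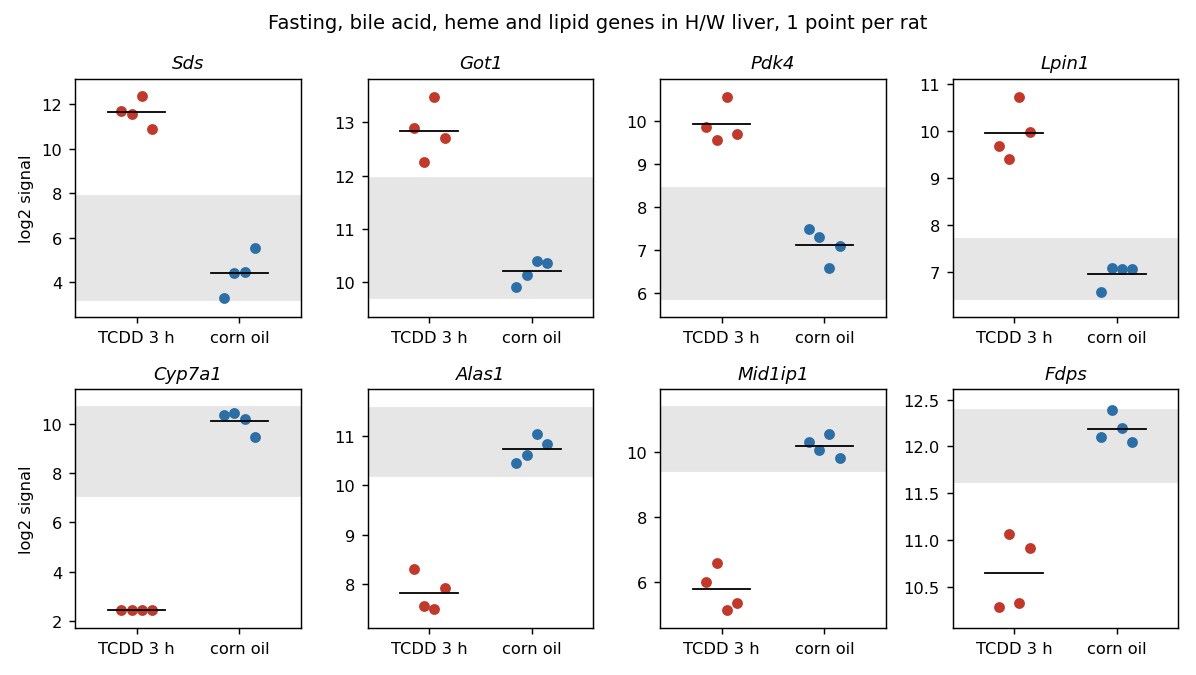
Log2 signal (vertical axis) of 8 genes of fasting, bile acid, heme and lipid metabolism in each H/W liver, TCDD 3 h left and corn oil right in each panel, with the group mean as a black line and the range of all 16 corn oil livers of the study as a grey band. Cyp7a1 lies at 2.42 to 2.46 in all TCDD livers and at 9.49 to 10.44 in corn oil livers.

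Genes of cholesterol synthesis were lower. Of 16 measured, 5 fell and none rose at 0.01, where 0.346% of all genes fell. At 0.05, 11 were lower (4.75% of all genes passed at 0.05, and 2.31% were lower). A log2 fold change below 0 was found for 15 of the 16, and for 7086 of all 10411 genes. The median of the 16 was -1.44. Their summed linear signal was 8258 to 11970 in TCDD livers and 18243 to 30035 in corn oil livers, without overlap. Lss, lanosterol synthase, was at 6.81, 6.68, 6.04 and 6.84 in TCDD livers, against 8.44, 8.31, 9.13 and 8.13 in corn oil livers (log2 fold change -1.91, adjusted p = 0.0091). Fdps, which makes farnesyl pyrophosphate, was at 10.28, 11.06, 10.32 and 10.92 in TCDD livers and 12.10, 12.39, 12.20 and 12.05 in corn oil livers (log2 fold change -1.54, adjusted p = 0.0068). Every TCDD liver was below every corn oil liver in both genes.

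The other genes of the pathway that fell were Sc5d (-1.23, adjusted p = 0.0030), Dhcr7 (-1.09, adjusted p = 0.0080) and Srebf2 (-1.40, adjusted p = 0.0056), the last of which encodes the transcription factor that drives the pathway. Another probe set of Srebf2 gave -0.01. Idi1, Msmo1 and Sqle had lower values still (-2.33, -2.47 and -2.23) with wider spread, and adjusted p of 0.021, 0.024 and 0.096. Insig1, a sterol sensor, was at 0.07. The count of 5 depended on single livers: it was 0 on leaving out TCDD replicate 1 or 3, or corn oil replicate 1 or 2, it was 1 on leaving out TCDD replicate 4, or corn oil replicate 3, 2 without TCDD replicate 2, and 6 without corn oil replicate 4, while the median stayed between -1.56 and -1.36. With scan day as a random block, or after median centring, none of the 16 passed.

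Genes of fat synthesis that feeding raises gave no uniform direction. Of 19 measured none passed 0.01. At 0.05, where 2.45% of all genes were higher and 2.31% lower, 1 of the 19 was higher and 4 were lower. Their median was -0.36. Srebf1, their main transcription factor, was at 9.16, 8.89, 8.68 and 8.18 in TCDD livers, against 11.40, 10.17, 11.04 and 10.53 in corn oil livers (log2 fold change -2.06, SE 0.30, adjusted p = 0.012). Scd, the stearoyl-CoA desaturase, lay on the other side at 2.53 (SE 0.60, adjusted p = 0.061). Mid1ip1, which activates acetyl-CoA carboxylase and is not on that list, fell steeply. It was at 6.01, 6.58, 5.13 and 5.35 in TCDD livers, against 10.30, 10.07, 10.55 and 9.83 in corn oil livers (log2 fold change -4.42, SE 0.33, adjusted p = 0.00069).

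**Figure D4:**
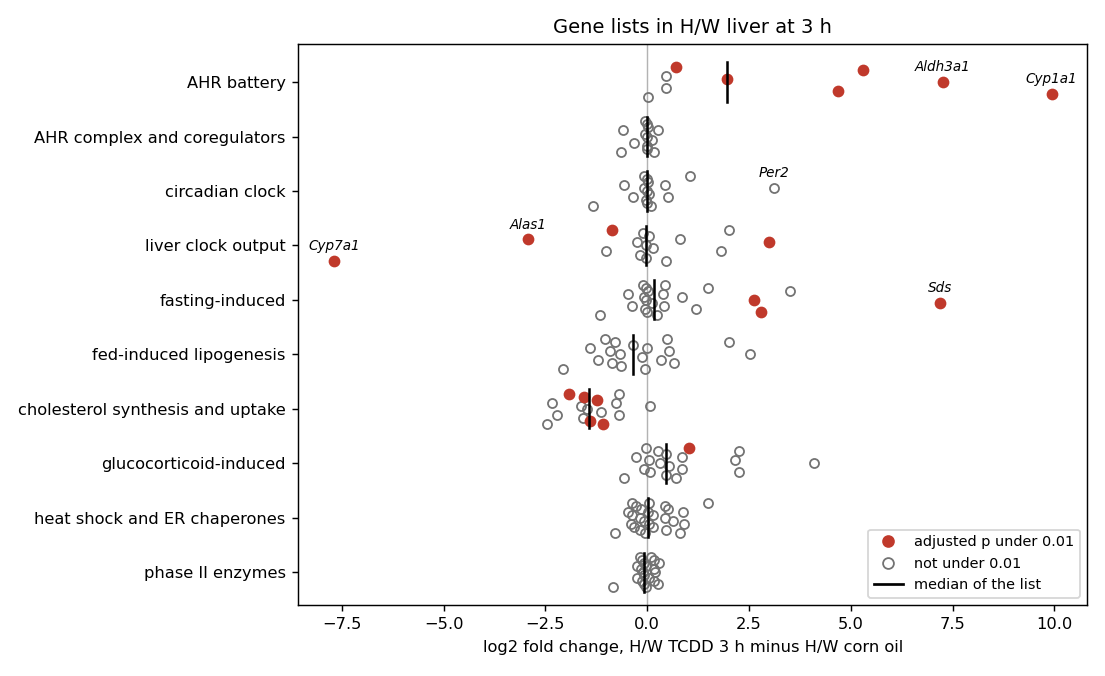
Log2 fold change, TCDD 3 h minus corn oil in H/W rats (horizontal axis), of every measured gene of 10 gene lists (rows), 1 point per gene, filled red past an adjusted p of 0.01 and open otherwise, with the list's median as a black bar. Medians were 1.96 for the AHR battery, 0.001 for the circadian clock and -1.44 for cholesterol synthesis.

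In the glucocorticoid-induced list, 1 of 19 genes rose at 0.01 and 5 at 0.05, with none lower at either, where 0.778% and 2.45% of all genes were higher. With scan day as a random block, or after median centring, no gene of the list passed at 0.01. Tdo2, which opens tryptophan breakdown, was at 13.54, 13.72, 14.01 and 13.60 in TCDD livers, against 12.77, 12.62, 12.77 and 12.57 in corn oil livers (2.05-fold, adjusted p = 0.0031). The call was lost on leaving out TCDD replicate 2 or 4, or any corn oil liver but replicate 4. The metallothionein Mt2A was at 11.94, 12.83, 13.10 and 12.61 in TCDD livers and 7.49, 10.30, 7.60 and 8.67 in corn oil livers (log2 fold change 4.10, SE 0.62, adjusted p = 0.013), and Mt1 had 2.25 (adjusted p = 0.011). Klf9 had 2.16 (adjusted p = 0.016) and Fkbp5 2.24 (adjusted p = 0.092), while Tsc22d3, Per1 and Sgk1 had 0.27, 0.05 and -0.57 with adjusted p over 0.4.

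Among transcription regulators and signalling genes, Nr5a2, a nuclear receptor that activates Cyp7a1, moved opposite to Cyp7a1. It was at 5.97, 5.90, 6.15 and 6.06 in TCDD livers and 3.71, 3.95, 2.47 and 3.61 in corn oil livers (log2 fold change 2.58, adjusted p = 0.0047); it was lost without any 1 of the TCDD livers or corn oil replicate 1, and without corn oil replicate 3 the log2 fold change was 2.26. Nr0b2, a repressor of bile acid synthesis, had a log2 fold change of -2.42 (adjusted p = 0.15), and no other gene of the 19 of bile acid synthesis and transport passed. Il6r, the interleukin-6 receptor, was the only 1 of 21 acute phase genes to pass (log2 fold change 2.48, adjusted p = 0.0023, with Il1r1 at 3.63 and an adjusted p of 0.034; lost on leaving out TCDD replicate 1, or corn oil replicate 1 or 3). Cdkn1b, the cell cycle inhibitor p27, was the only 1 of 20 genes of growth arrest and cell cycle to pass, at 9.70, 9.43, 9.15 and 9.28 in TCDD livers and 7.83, 7.83, 7.64 and 7.62 in corn oil livers (log2 fold change 1.66, adjusted p = 0.00069), but another probe set of Cdkn1b gave -0.02. Beside these counts, 0.778% of all genes were higher and 0.346% lower at the same threshold.

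None of 29 immediate early genes, 26 heat shock and endoplasmic reticulum chaperones or 21 phase II enzymes passed the threshold, which 1.12% of all genes passed. Of 22 cytochromes P450 of families 2 to 4, Cyp2e1, which oxidises ethanol and small solvents, was lower and no other passed. Cyp2e1 was at 13.61, 13.59, 13.75 and 13.62 in TCDD livers, against 14.50, 14.47, 14.59 and 14.18 in corn oil livers (log2 fold change -0.79, adjusted p = 0.0046; lost without any 1 liver other than corn oil replicate 4).

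Others of the 10 genes lowered most were of mixed function. Eci1, an isomerase of mitochondrial fat oxidation, was at 10.16, 9.87, 10.01 and 9.90 in TCDD livers and 11.81, 12.14, 12.22 and 11.64 in corn oil livers (log2 fold change -1.97, adjusted p = 0.00062), although another probe set gave -0.05. Tuba4a, an alpha-tubulin, had -1.92 (adjusted p = 0.0028) and lost its call on leaving out TCDD replicate 1, 3 or 4, or corn oil replicate 1 or 3. Ppard, a nuclear receptor for fatty acids, had -1.85 (adjusted p = 0.0019), with -0.07 in another probe set and a loss of the call without corn oil replicate 1. Anks4b, an ankyrin repeat scaffold protein, had -1.65 (adjusted p = 0.0012).

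Markers of the tissue were present: none of 11 hepatocyte markers lay under the array median in both groups, and of these only Cyp2e1 passed the threshold. The summed linear signal of the hepatocyte markers was 271062 to 276508 in TCDD livers and 283676 to 299212 in corn oil livers. None of 7 bile duct, 14 stellate and endothelial, 14 macrophage and immune or 13 blood, pancreas and fat markers passed, where 1.12% of all genes did. The sums of the hepatocyte list did not overlap between the groups. The sums of the bile duct list (427 to 614 in TCDD livers, 666 to 908 in corn oil livers) and of the blood, pancreas and fat list (3734 to 4869 in TCDD livers, 4989 to 8417 in corn oil livers) did not overlap either, with 4 of 7 and 9 of 13 markers under the array median in both. Their part in the results was not tested.

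The change at 3 h was then set beside that of L-E rats, which share no array with H/W rats but share the scan day and the lack of a corn oil group at 3 h. In L-E rats 265 genes (2.55%) passed the threshold, 145 higher (1.39%) and 120 lower (1.15%). Of the 117 genes of H/W rats, 44 were called in the same direction in L-E rats, which is 37.6% of the H/W list and 16.6% of the L-E list, and none in the opposite direction. These were 35 of the 81 genes higher in H/W TCDD rats and 9 of the 36 lower. All 117 had the same sign in L-E rats. The share of all genes with the same sign in both strains was not counted, so this has no baseline. In H/W rats 7086 of the 10411 genes lay below 0.

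The log2 fold changes of Cyp1a1 were 9.93 in H/W and 10.12 in L-E rats, those of Cyp1a2 were 0.71 in H/W and 0.77 in L-E rats, those of Nfe2l2 were 1.96 in H/W and 1.98 in L-E rats, and those of Aldh3a1 were 7.25 in H/W and 8.03 in L-E rats. For Nqo1 they were 5.30 in H/W rats and 2.13 in L-E rats. The H/W minus L-E difference for Nqo1 was 3.18 (SE 0.69, adjusted p = 0.081), and corn oil means were 5.16 in H/W rats and 9.42 in L-E rats, while TCDD means were 10.47 in H/W rats and 11.55 in L-E rats. The corresponding difference for Cyp1a1 was -0.19 with an SE of 1.76, so a sizeable difference between the strains could not be seen for that gene.

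The fall of Cyp7a1 was present in both strains (-7.69 in H/W rats and -6.73 in L-E rats), as were the rise of Lpin1 (2.99 in H/W rats and 2.98 in L-E rats) and the fall of Mid1ip1 (-4.42 in H/W rats and -2.97 in L-E rats), all past the threshold. Alas1 fell by 2.92 in H/W rats and had -1.37 in L-E rats, where its adjusted p was 0.010, just over the threshold (H/W minus L-E adjusted p = 0.050). The median of the cholesterol list was -1.44 in H/W rats and -0.79 in L-E rats, with 4 genes called lower in L-E rats, and for Lss the values were -1.91 in H/W rats and -0.44 in L-E rats (H/W minus L-E adjusted p = 0.080). None of the 22 fasting genes passed in L-E rats, where their median was 0.007, against 0.18 in H/W rats. Sds had 7.20 in H/W rats and 6.25 in L-E rats (adjusted p in L-E rats 0.019), Got1 had 2.63 in H/W rats and 2.03 in L-E rats (0.037), and Pdk4 had 2.80 in H/W rats and 2.31 in L-E rats (0.014), with H/W minus L-E adjusted p of 0.88 to 0.99. The median of the fat synthesis list was -0.36 in H/W rats and 0.49 in L-E rats. Per2 passed the threshold in L-E rats (4.71, adjusted p = 0.00076), and the H/W minus L-E difference of -1.59 had an adjusted p of 0.70.

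A test of the difference in the 3 h change, in which an effect of scan day common to both strains cancels, called 6 genes (0.0576%), all with lower values in H/W rats, each at an adjusted p of 0.0089. At an unadjusted p under 0.05 there were 1037 genes (9.96%). Mpzl1, a cell surface glycoprotein, had a mean signal of 3.15 in TCDD rats and 2.61 in corn oil rats of the H/W strain, against 5.59 in TCDD rats and 3.41 in corn oil rats of the L-E strain, giving a difference of -1.65 (SE 0.21). The H/W means lie below the median signal of every array. The other 5 encode ribosomal proteins: Rpl22, Rpl7a, Rps16, Rps23 and Rpsa, with differences of -0.42 to -0.58. Rpl22 alone also passed in H/W rats, at 11.00, 11.12, 11.05 and 11.05 in TCDD livers and 11.52, 11.47, 11.54 and 11.41 in corn oil livers (log2 fold change -0.43, adjusted p = 0.0031). Ribosomal protein genes have many near-identical copies in the genome, so the assignment of their probe sets is uncertain. Fits that left out 1 liver called 0 to 4 genes, and none of the 6 was called in all of these fits.

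Comparisons at 19 h in L-E, LnA and LnC rats have corn oil rats of the same time and hold no H/W array. They called 215 genes (2.07%) in L-E rats, 113 (1.09%) in LnA rats and 115 (1.1%) in LnC rats, with 330 (3.17%) in at least 1. Of the 117 genes of H/W rats at 3 h, 27 were called in the same direction in at least 1 of the 3 (23.1% of the H/W list and 8.18% of the 330). They were 25 of the 81 higher genes and 2 of the 36 lower genes, Cyp2e1 and Tspan4.

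In all 3 of these comparisons 13 of the genes were called, all higher: the battery members Cyp1a1, Cyp1a2, Aldh3a1, Nqo1, Tiparp and Nfe2l2, with Ceacam1, Csk, Eml4, Fam8a1, Fbxo31, Pkdcc and Ube4b. Of the last 7, Ceacam1 is a cell adhesion molecule involved in insulin clearance, Csk a kinase that inhibits SRC kinases, Pkdcc a secreted protein kinase and Ube4b a ubiquitin ligase. At 3 h in H/W rats Ube4b had a log2 fold change of 1.67, Csk 1.27, Pkdcc 2.11, Ceacam1 1.08 and Fam8a1 0.98. The 13 make up 11.1% of the H/W list and 39.4% of the 33 genes called in all 3 comparisons at 19 h.

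The remaining 90 genes, 56 higher and 34 lower, were not called in the same direction in any of the 3 comparisons at 19 h. Among them were all the genes called in the fasting and cholesterol lists, and Cyp7a1, Alas1, Lpin1, Mid1ip1, Tdo2, Nr5a2, Il6r, Cdkn1b, Tada1 and Cebpb, a transcription factor of the liver (log2 fold change 1.96, adjusted p = 0.0031). Of these 90, 24 were called in the same direction in L-E rats at 3 h. For Cyp7a1 the log2 fold changes at 19 h were -4.59 in L-E, -1.91 in LnA and -5.43 in LnC rats, with adjusted p of 0.12, 0.76 and 0.034, so that its absence from the 19 h lists is not an absence of difference. For Lpin1 the log2 fold changes at 19 h lay between 0.52 and 0.91, for Alas1 between -0.10 and 0.02, and for Sds between -1.55 and -0.37. Sds and Hacl1, an enzyme of fatty acid alpha-oxidation, were called in the opposite direction in LnA rats at 19 h (-0.37 and -1.41), against 7.20 and 1.23 in H/W rats at 3 h.

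The H/W rats at 19 h after TCDD were compared with the same 4 corn oil livers, so the values are only set side by side. In that comparison 44 genes (0.423%) passed. The log2 fold changes of Cyp1a1 were 9.93 at 3 h and 10.47 at 19 h, of Aldh3a1 7.25 at 3 h and 9.83 at 19 h, of Nqo1 5.30 at 3 h and 6.29 at 19 h, and of Tiparp 4.69 at 3 h and 4.37 at 19 h. Sds was at 7.20 at 3 h and -1.03 at 19 h, Got1 at 2.63 at 3 h and 0.28 at 19 h, Pdk4 at 2.80 at 3 h and 0.69 at 19 h, and Lpin1 at 2.99 at 3 h and 0.59 at 19 h. Lss was at -1.91 at 3 h and -0.19 at 19 h, Alas1 at -2.92 at 3 h and 0.26 at 19 h, and Cyp7a1 at -7.69 at 3 h and -5.01 at 19 h.

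**Figure D5:**
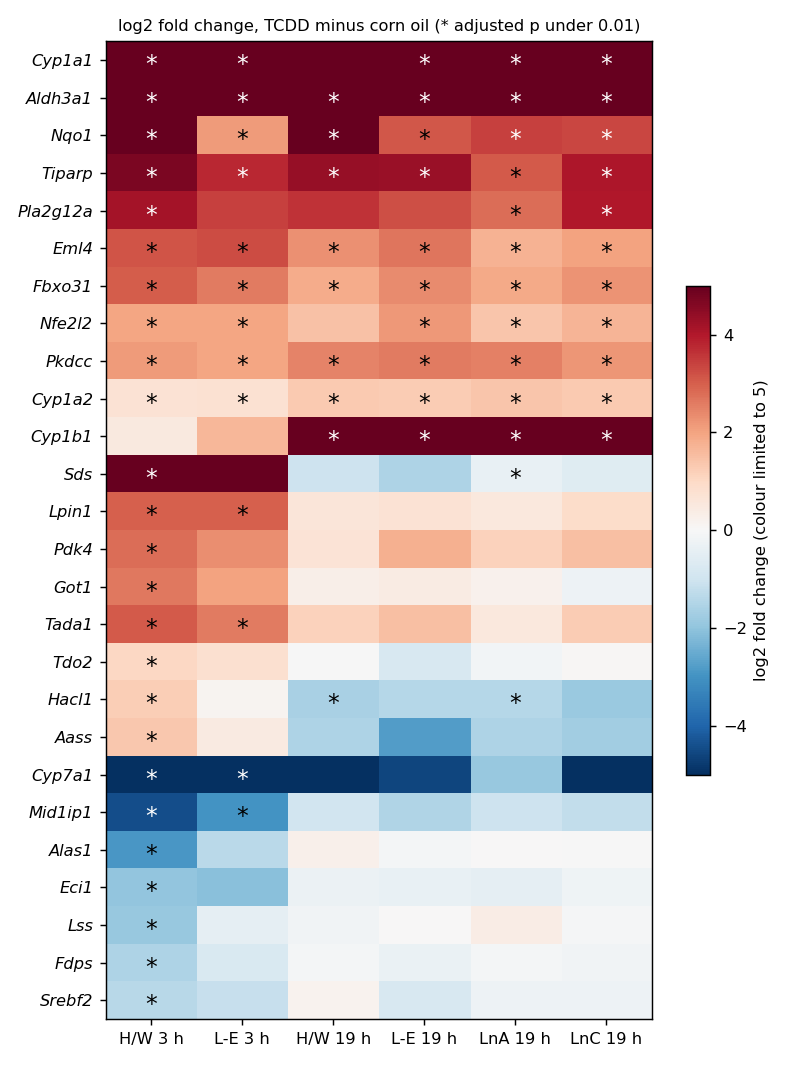
Log2 fold change, TCDD minus corn oil (colour, limited to 5 in either direction), of named genes (rows) in H/W and L-E rats at 3 h and in H/W, L-E, LnA and LnC rats at 19 h (columns), with stars at an adjusted p under 0.01. Cyp1a1, Aldh3a1 and Tiparp are high in every column, whereas Sds has 7.20 in H/W rats at 3 h and -1.03 at 19 h.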

How the data were processed

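Total RNA of rat liver was measured on Affymetrix RAE230A arrays, 1 per rat. The authors deposited 1 log2 value for each probe set and array. The submitters' processing notes name R 2.3.1, affy 1.10.0 and GCRMA 2.4.1, while the paper's methods describe RMA. Both fit a background to low signals, so differences from low signals depend on that fit. For H/W rats at 19 h the paper's log2 fold changes of Cyp1a1, Aldh3a1, Cyp1b1, Nqo1 and Tiparp are well below those given here. The paper also assigned probes to genes in another way, and the cause of this gap was not tested. The number of arrays limits the precision. Scan days were read from the scanner's own files.

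Of 15923 probe sets 57 are controls, which were not tested, 12783 have 1 gene symbol, 312 several and 2771 none. For each of 10411 genes the probe set of highest mean signal in the 8 arrays was used (1868 genes have several), without a filter on low values. Of the 117 called genes 22 have several probe sets. In a fit of every probe set, all probe sets of the gene passed for 3 of these 22. For 3 of the 22 the probe sets differed in sign. A call in such a gene is thus a result for the probe set used. Entrez IDs of 10378 genes were found in RefSeq.

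limma 3.58.1 in R 4.3.3 (lmFit and eBayes) compared 4 TCDD with 4 corn oil arrays of H/W rats, and the difference from L-E rats was an interaction contrast in 16 arrays. P-values were adjusted over all genes by the Benjamini-Hochberg method with a threshold of 0.01. Tested on simulated data, the H/W fit recovered 81 of 100 genes changed by 1 on the log2 scale and 93 of 100 changed by 2, and the interaction 76 and 92. The simulated noise was independent and normal, without a scan day or array effect. The L-E arrays were given H/W means and spreads, and genes of low signal were included. These counts check the fit and do not give the power for well-expressed genes or for the strain difference. Summed signals of a list are sums of 2 raised to the log2 values.

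Named genes were the 10 highest and 10 lowest log2 fold changes among called genes with groups that do not overlap, genes of the AHR battery, AHR complex and clock lists, genes of other lists that passed or define them, and genes called in both tests; further genes were named after their values were seen. The comparison, the lists and the rules were chosen with earlier results of these data known. Alternatives were other thresholds, probe set rules, a filter on low signals, other scalings, other variance models, array weights, a replicate block, scan day as a random block, 1 fit of all 10 groups and leaving out each array.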

Additional observations from a re-analysis of the deposited data

Results flagged for a closer look

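Of 76 groups of 4 livers examined for single values far from the rest, 4 held one, where chance gives about 1 in 20. The Cyp1a1 signal of H/W corn oil replicate 3 was 8.60, against 2.38 to 2.89 in the other 3 corn oil livers, and its Cyp1a2 signal was 14.29, against 13.94 to 13.96. The Nqo1 signal of H/W TCDD replicate 4 at 3 h was 10.98, against 10.21 to 10.34 in the other TCDD livers. The Lpin1 signal of H/W corn oil replicate 1 was 6.59, against 7.07 to 7.09.

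The change at 3 h differed between H/W and L-E rats for 6 genes by limma's interaction contrast, each at an adjusted p of 0.0089. The H/W minus L-E difference was -1.65 for Mpzl1 (0.54 in H/W and 2.18 in L-E rats), -0.42 for Rpl22 (-0.43 in H/W and -0.01 in L-E rats), -0.48 for Rpl7a (-0.26 in H/W and 0.22 in L-E rats), -0.58 for Rps16 (-0.15 in H/W and 0.43 in L-E rats), -0.46 for Rps23 (-0.24 in H/W and 0.22 in L-E rats) and -0.45 for Rpsa (-0.22 in H/W and 0.23 in L-E rats).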

How the results depend on the processing

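The 117 genes called in H/W rats at 3 h became 495 at a threshold of 0.05, 187 without the 40% of genes of lowest signal, 57 after median centring, 27 with scan day as a random block (27 of the 117; consensus correlation 0.278), 3 with a replicate block and 593 in 1 fit of all 10 groups (110 of the 117). Leaving out 1 liver gave 50 to 175: 52, 73, 50 and 56 without TCDD replicates 1, 2, 3 and 4, and 50, 88, 70 and 175 without corn oil replicates 1, 2, 3 and 4. Replicate numbers do not pair these rats: deviations of same-numbered livers correlated at 0.00909 to 0.0661 and 1 of 4 livers correlated best with its own number. The 6 genes of the strain difference became 33 at 0.05, 20 in the fit of 10 groups, 3 with array weights, 1 with a trended robust variance or with an absolute log2 fold change over 1, and 0 with the mean of probe sets, every probe set, the low genes left out, quantile normalization, median centring or the replicate block; leaving out 1 liver gave 0 to 4. The 27 genes shared with 19 h became 127 at 0.05, 55 without the low genes, 15 after quantile normalization, 12 after median centring and 1 with the replicate block, and 12 to 25 with 1 liver left out. The 44 shared with L-E rats at 3 h became 218 at 0.05, 95 without the low genes, 23 after median centring, 68 with a trended robust variance and 0 with the replicate block, and 21 to 61 with 1 liver left out. Cyp2s1, near 0 throughout, was at -0.0232 to 0.0580 with 1 liver left out, changing sign to -0.0232 without TCDD replicate 2 and to -0.00662 without corn oil replicate 3. Cyp7a1, Tiparp and Fbxo31 were called in all 18 fits with another setting or 1 liver left out. Of 33 called genes followed across settings, 12 kept their call with scan day as a random block and 21 did not: Cyp1a1, Cyp1a2, Nqo1, Pla2g12a, Lpin1, Got1, Pdk4, Tdo2, Nr5a2, Il6r, Tuba4a, Ppard, Anks4b, Lss, Fdps, Srebf2, Sc5d, Dhcr7, Tspan4, Cyp2e1 and Rpl22. No scan day held both groups, so a call kept or lost with that block does not separate scan day from TCDD. The cause of the changes in calls was not tested.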

Other observations

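Further genes among the 117 belong to groups that were put together after their values were seen, so no count of theirs is a test. Beside Eci1, 4 more genes of fat oxidation in mitochondria and peroxisomes were lower in H/W TCDD rats at 3 h than in corn oil rats (log2 fold changes in parentheses): Decr1 (-1.06), Hadhb (-0.75), Decr2 (-0.74) and Etfb (-0.41), which passes electrons from fat oxidation to the respiratory chain. Genes of fat oxidation did not all fall. Lpin1, its coactivator, was higher (2.99), and Cpt1a, which did not pass, also had a higher mean signal in TCDD rats. Of heme synthesis, Alad (-0.71) was lower with Alas1. Of amino acid metabolism, Aass of lysine breakdown (1.35), Kyat1 (1.15) and Bhmt of methionine synthesis (1.89) were higher with Sds, Got1 and Tdo2, whereas Oplah (-1.06) and Mpst (-0.92) were lower. Genes of the secretory pathway that were higher included Edem1 (2.10), Stx18 (2.05), Vmp1 (1.11), Sec22b (0.93) and Serp1 (0.37). The nuclear receptor Nr1i2, which senses xenobiotics and steroids, had 1.24 and the transcription factor Ets2 1.19.

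Eml4 and Pkdcc, both called higher in H/W rats at 3 h and in all 3 comparisons at 19 h, are neighbours: their annotated starts lie 190.0 kb apart on chromosome 6 (RefSeq, GRCr8), with 4 annotated genes between them, 0 of them protein coding.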
